A study of Mus musculus with 16 samples.

Results

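Pdgfra, Kit and Kdr are 3 genes for receptor tyrosine kinases that lie side by side on mouse chromosome 5, and they are the only protein-coding genes of the 928.0 kb between chr5:75101322-76029072 in the mm10 build. The accessible regions of this domain were taken from 8 peak lists of an ATAC-seq study, an assay that marks open DNA by where the Tn5 transposase can cut and tag it. Peaks of the 8 lists that overlapped were merged into union regions, and every union region from 50 kb outside Pdgfra to 50 kb outside Kdr was kept. This gave 75 of the 122020 union regions of the series. Each region is named by the distance of its midpoint from the annotated Kit start, positive downstream, so that Kit+156.0kb lies 156.0 kb downstream of that start.

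The cells were labelled as haematopoietic progenitors or multipotent progenitors and came from mice 21 days old. Set 1 held Flt3-ITD/Runx1-het, Flt3-ITD, Runx1-het and wild type. Flt3-ITD is a duplicated stretch within the receptor gene Flt3 that leaves the kinase active, and Runx1-het denotes a heterozygous change of the transcription factor gene Runx1. Set 2 held NUP98-HOXD13/Flt3-ITD, NUP98-HOXD13, Flt3-ITD and wild type, where NUP98-HOXD13 is a leukaemia fusion gene. The labels do not give the sorting gate, the promoter behind the fusion gene, the number of Flt3-ITD alleles or how the sets differ, and the wild types carry none of the named alleles. Each of the 8 groups had 2 samples but 1 deposited list, so the values below have no replicate error, no p-value between genotypes could be computed, and read depth was unknown. In cells taken in bulk, a region absent from a list can reflect fewer cells with it open or less opening per cell, and these cannot be told apart.

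The Kit receptor binds stem cell factor and is needed by blood stem and progenitor cells, mast cells, melanocytes and germ cells. Pdgfra, a receptor for platelet-derived growth factors, is known mainly from mesenchymal and stromal cells, and Kdr, the main signalling receptor for vascular endothelial growth factor, from endothelium and its blood-forming precursors. Pdgfra and Kit belong, with Flt3, Csf1r and Pdgfrb, to the class III receptors, in which ligand binding pairs the receptors and switches on their kinase. Distant regulatory DNA matters at this locus, since the W-sash inversion upstream of Kit leaves its coding sequence intact and still removes Kit from mast cells.

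The promoters are shown because the 3 starts differed in the lists. The sequences run 5′ to 3′ from 250 bases before to 50 bases after the annotated start and are from RefSeq, assembly GRCm38.p6. All 3 genes were matched. Capitals mark a match to an ETS motif. The windows are chr5:75152001-75152300 on the plus strand for Pdgfra, chr5:75574737-75575036 on the plus strand for Kit and chr5:75978406-75978705 on the minus strand for Kdr.
Pdgfra: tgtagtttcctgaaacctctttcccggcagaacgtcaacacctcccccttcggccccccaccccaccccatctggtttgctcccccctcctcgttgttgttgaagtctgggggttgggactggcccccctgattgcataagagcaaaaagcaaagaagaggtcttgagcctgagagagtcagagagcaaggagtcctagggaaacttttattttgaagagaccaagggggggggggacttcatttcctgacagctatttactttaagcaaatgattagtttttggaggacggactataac
Kit: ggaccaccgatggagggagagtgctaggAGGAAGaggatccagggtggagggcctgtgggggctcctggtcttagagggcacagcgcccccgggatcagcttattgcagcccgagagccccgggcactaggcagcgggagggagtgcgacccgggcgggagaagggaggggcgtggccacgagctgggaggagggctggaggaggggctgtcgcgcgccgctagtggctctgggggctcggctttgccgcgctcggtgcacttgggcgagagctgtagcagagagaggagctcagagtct
Kdr: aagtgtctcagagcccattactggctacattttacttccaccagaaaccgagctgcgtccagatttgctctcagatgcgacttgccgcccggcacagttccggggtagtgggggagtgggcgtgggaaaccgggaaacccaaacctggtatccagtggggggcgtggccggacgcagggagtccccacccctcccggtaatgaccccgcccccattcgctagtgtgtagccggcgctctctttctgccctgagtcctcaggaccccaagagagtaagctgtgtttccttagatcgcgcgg
The Kit promoter was the richest of the 3 in G and C, with 69.0% and 20 CpG dinucleotides. The Kdr promoter had 60.7% and 19 CpG, and the Pdgfra promoter 51.0% and 5 CpG. Over 32851 mouse promoters of the same length the medians were 52.7% and 7 CpG. The Kit window held the only ETS match (the letters AGGAAG, or the same beginning with C, on either strand), which was AGGAAG with its first base at position -222 from the start, and 46.5% of all promoters held one. No window matched GATA (the letters AGATAA, or the same beginning with T, ending with G, or both), RUNX (the letters TGTGGT, or the same with C as the third letter) or STAT (TTCNNNGAA), which were found on either strand in 29.8%, 22.4% and 8.3% of all promoters. A GC box (GGGCGG) occurred 1 time in the Kit window and 2 times in the Kdr window, against 35.7% of all promoters with at least 1. The E-box letters CANNTG occurred 2 times in Pdgfra and 1 time each in Kit and Kdr, and in 72.3% of all promoters. These matches describe letters in the windows, and binding was not measured.

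Of the 75 domain regions, 15 were present in all 8 lists (20%), against 34.1% of all union regions. In contrast, 25 were present in 1 list (33.3%), against 18.9% of all regions. The domain thus held a smaller share of regions common to every list and a larger share seen once than the union as a whole.

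**Figure D1:**
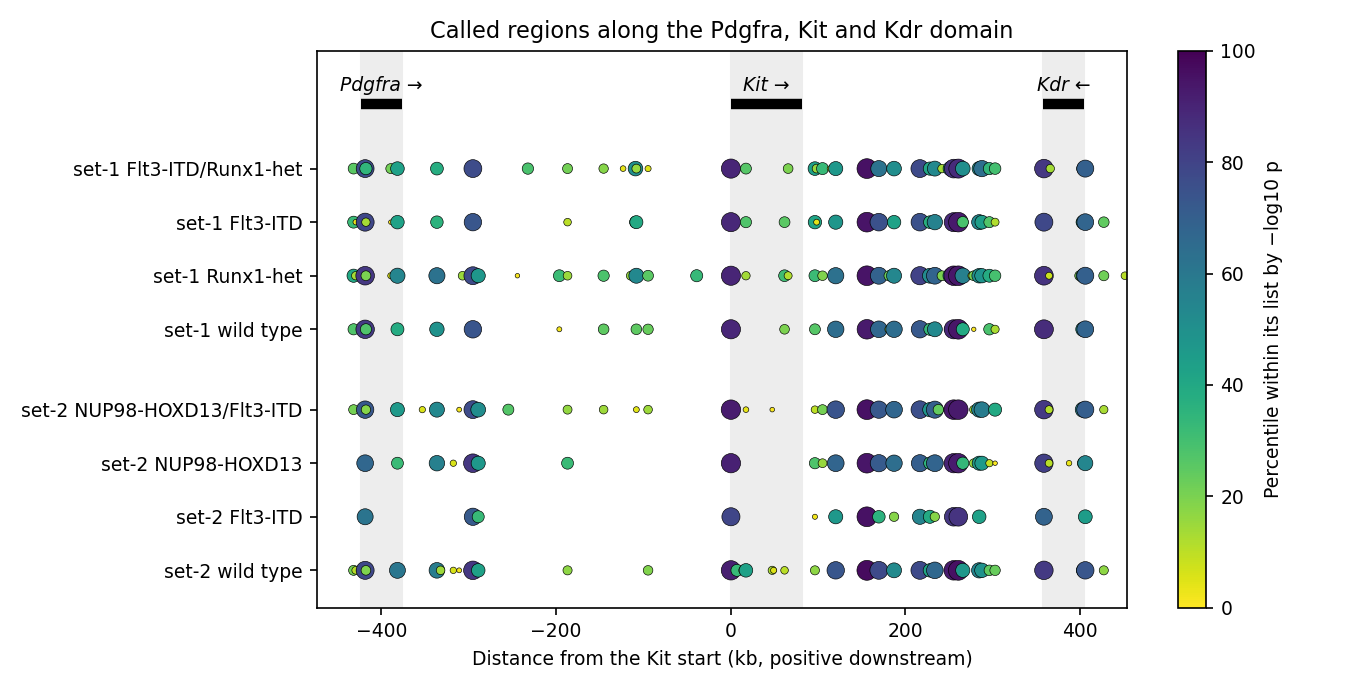
Called regions along the domain in each of the 8 lists, by distance from the Kit start in kb (horizontal axis). Each point is 1 region present in that list, its colour and size give the percentile of its −log10 p within the list, and grey bands mark the gene spans. The darkest points of every list lie at the Kit start and between Kit and Kdr, and the widest stretch with few points lies upstream of Kit.

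In set 1, Flt3-ITD/Runx1-het held 42 of the 75 domain regions (56%, against 66.7% of all union regions). Flt3-ITD of set 1 held 38 (50.7%, against 65.4%), Runx1-het 52 (69.3%, against 67.8%) and set-1 wild type 33 (44%, against 59.1%). In set 2, NUP98-HOXD13/Flt3-ITD held 40 (53.3%, against 61.7%), NUP98-HOXD13 32 (42.7%, against 63.9%), Flt3-ITD 17 (22.7%, against 46.9%) and wild type 43 (57.3%, against 72.4%). Runx1-het was the list in which the domain's share lay above that of all regions, by 1.5 percentage points. Of its 52 domain regions, 7 entered the union through this list alone (9.33% of the domain regions, against 2.51% of all). Nothing is therefore read from the excess. The domain's share lay below in the other 7 lists, most in set-2 Flt3-ITD, with a difference of -24.2 points. That list was also the shortest, with 84080 peaks against 113325 to 138514 in the others.

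When every list was cut to its 84080 peaks with the highest −log10 p, 49 domain regions were left. Runx1-het then held 39 of them (79.6%, against 70.4% of all regions), Flt3-ITD/Runx1-het 34 (69.4%, against 71.6%), set-1 Flt3-ITD 28 (57.1%, against 70.8%) and set-1 wild type 30 (61.2%, against 68.3%). NUP98-HOXD13/Flt3-ITD held 30 (61.2%, against 67.7%), NUP98-HOXD13 25 (51%, against 68.5%), set-2 Flt3-ITD 17 (34.7%, against 59.7%) and set-2 wild type 25 (51%, against 71%). Runx1-het stayed highest and set-2 Flt3-ITD lowest at equal list length, while the set-2 wild type moved to below the set-1 wild type.

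**Figure D2:**
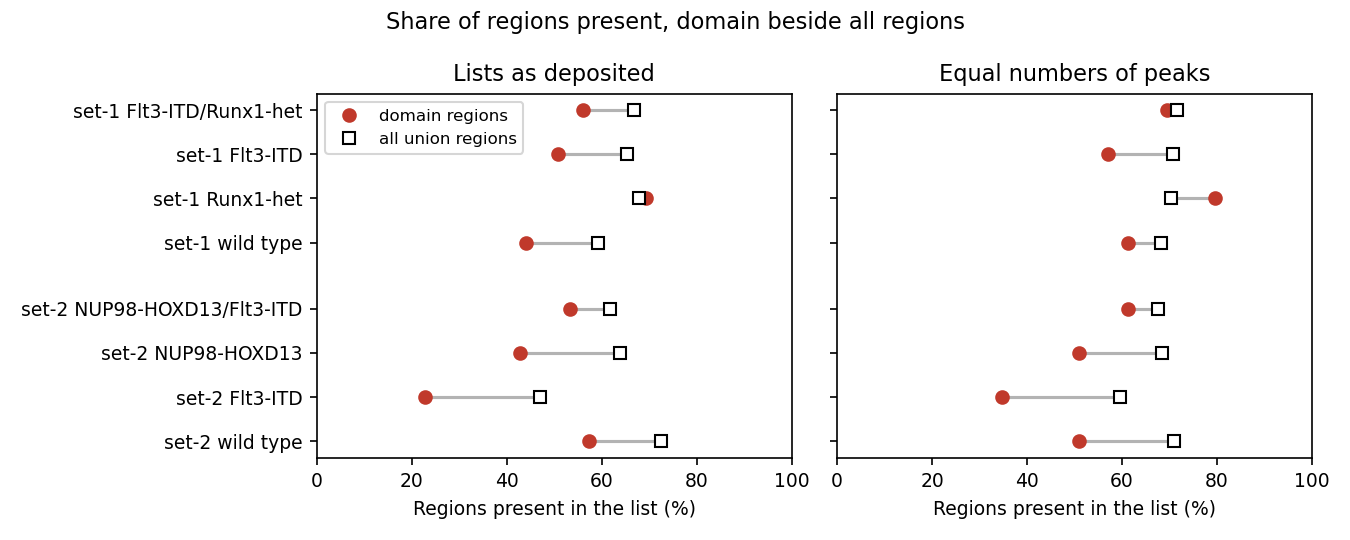
Share of the domain regions (red points) and of all union regions (open squares) present in each list, in percent, for the lists as deposited (left) and cut to equal numbers of peaks (right). Runx1-het is the one list with the red point to the right of its square in both panels, and set-2 Flt3-ITD has the lowest share in both.

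The regions were unevenly placed. The 276.0 kb between Kit and Kdr held 28 regions, of which 10 were present in all 8 lists (35.7%, near the 34.1% of all union regions). The longer stretch between Pdgfra and Kit, 377.0 kb, held 20 regions, of which 1 was present in all 8 lists (5%) and 9 in a single list. Pdgfra, Kit and Kdr spans held 5, 8 and 6 regions with 1 each in all 8 lists, and the outer flanks beyond Pdgfra and Kdr held 5 and 3, of which 0 and 1 were in all 8. Per 100 kb this made 10.1 regions between Kit and Kdr, 5.31 between Pdgfra and Kit, 10.7, 9.79 and 13.0 in the Pdgfra, Kit and Kdr spans, and 6.0 in the outer flank of Kdr. The stretch between Kit and Kdr was thus not denser than the gene spans, and the one between Pdgfra and Kit was the sparsest.

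The leading region of the domain was Kit+156.0kb, at chr5:75730306-75731703, between Kit and Kdr and outside any annotated gene span. Its −log10 p, the authors' value, was 366.6 in Flt3-ITD/Runx1-het, 327.4 in set-1 Flt3-ITD, 352.4 in Runx1-het, 286.8 in set-1 wild type, 327.4 in NUP98-HOXD13/Flt3-ITD, 297.8 in NUP98-HOXD13, 116.0 in set-2 Flt3-ITD and 630.9 in set-2 wild type. These values depend on depth and are read here within each list. Within the lists it lay at percentile 93.2 to 96.9, meaning that this percentage of the list's regions had a lower −log10 p, and its fold enrichment over the local background was 17.9 to 22.0. It was the highest domain region by −log10 p in 7 of the 8 lists, and its summits fell within 20 bp of each other in the 8 lists. In set-1 wild type the highest was Kit+260.7kb, with 317.1.

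Kit+260.7kb (chr5:75835154-75836197) and Kit+255.4kb (chr5:75829933-75830840) formed a pair of strong regions nearer to Kdr, at percentiles 84.8 to 95.8 and 83.9 to 93.6. The −log10 p of Kit+260.7kb was 208.0, 289.7, 323.1 and 317.1 in Flt3-ITD/Runx1-het, Flt3-ITD, Runx1-het and wild type of set 1. In set 2 it was 264.0, 241.6, 59.7 and 546.0 in NUP98-HOXD13/Flt3-ITD, NUP98-HOXD13, Flt3-ITD and wild type. Neither region fell below percentile 83.9 in any list, and their summits varied by 19 and 49 bp. Kit+216.7kb (chr5:75791136-75792175) followed at percentiles 54.7 to 80.2.

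Taking the top 25% of a list by −log10 p as strong, 9 domain regions were strong in at least 1 list, 5 of them between Kit and Kdr, and all 9 were present in all 8 lists, as were 95.2% of all union regions that were strong in at least 1 list. No domain region (0 of 75) was strong in one list and absent from the other in any of the 6 comparisons of a mutant with the wild type of its set, against 0.448% of all union regions. When a region counted as present only if a list's peaks covered at least 50% of it, this count was 1. Both counts lay near those of all regions, so nothing is read from them about the cluster.

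**Figure D3:**
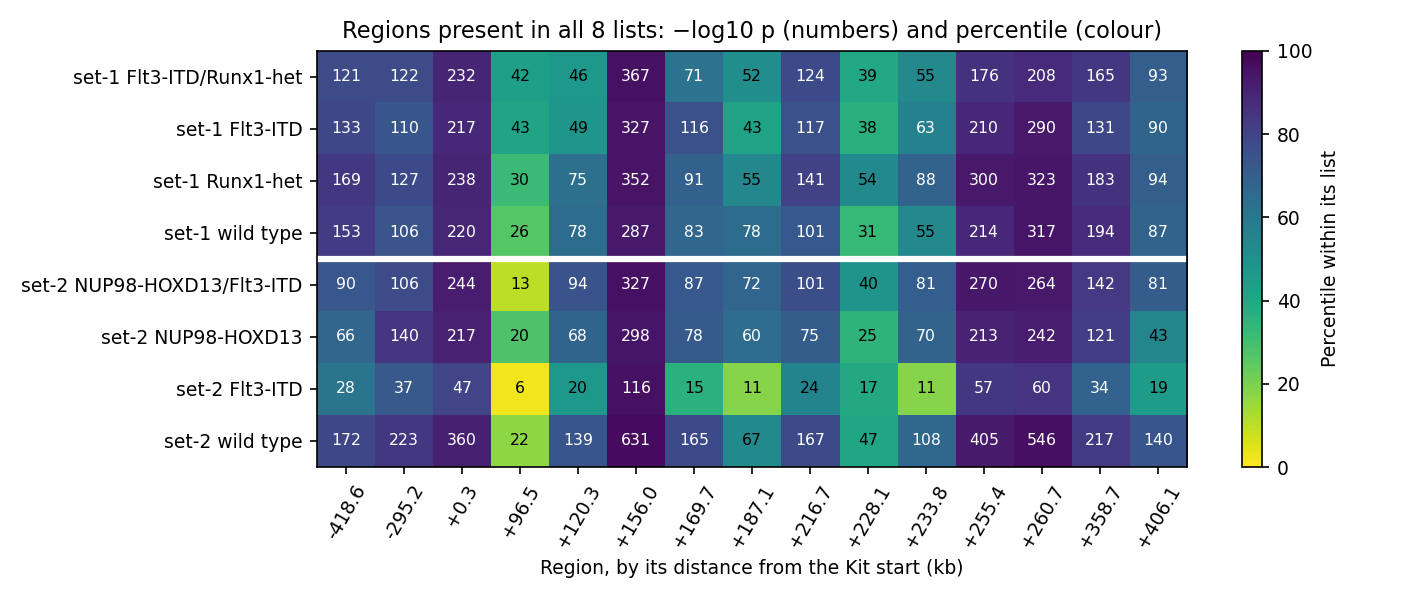
The 15 domain regions present in all 8 lists, by distance from the Kit start in kb (columns), with −log10 p as numbers and the percentile within the list as colour. Kit+156.0kb, Kit+255.4kb, Kit+260.7kb and the Kit start (+0.3) are dark in every row, and the numbers of set-2 Flt3-ITD are the lowest in every column.

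The weakest of the 15 shared regions was Kit+96.5kb (chr5:75671018-75671884), whose percentile was 2.32 in set-2 Flt3-ITD and up to 43.4 in the other lists. Its −log10 p was 41.8, 42.8, 29.5 and 25.8 in Flt3-ITD/Runx1-het, Flt3-ITD, Runx1-het and wild type of set 1. In set 2 it was 13.0, 20.1, 5.59 and 21.5 in NUP98-HOXD13/Flt3-ITD, NUP98-HOXD13, Flt3-ITD and wild type. Its summits spread over 307 bp, the widest range of the 15.

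Pdgfra (chr5:75151322-75198206, plus strand) was the receptor gene with the fewest lists that held a region at its start. The start used was the annotated one at chr5:75152251, which lies inside the span. A region within 1 kb upstream of it, Kit-423.7kb (chr5:75151217-75151420), overlapped the beginning of the span and lay outside the printed promoter window. Kit-423.7kb was present in Flt3-ITD/Runx1-het alone, with −log10 p 11.8 and percentile 4.26. It was lost when the lists were cut to equal numbers of peaks. Inside the gene, 4.2 kb from the start, Kit-418.6kb (chr5:75156116-75156708) was present in all 8 lists at percentile 61.4 to 83.9. Its −log10 p was 120.7, 133.2, 168.8 and 152.9 in Flt3-ITD/Runx1-het, Flt3-ITD, Runx1-het and wild type of set 1. In set 2 it was 89.6, 66.3, 28.0 and 172.5 in NUP98-HOXD13/Flt3-ITD, NUP98-HOXD13, Flt3-ITD and wild type. In each set the value was lower in both lists with Flt3-ITD, and in set 2 also in NUP98-HOXD13, than in wild type, but not in Runx1-het. These are the authors' values from lists of unknown depth, so the order was not read as a change.

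Between Pdgfra and Kit the one region common to all lists was Kit-295.2kb (chr5:75279484-75280076), at percentile 71.9 to 84.2. It had the highest fold enrichment of any domain region in Flt3-ITD/Runx1-het, 23.3, and in set-2 wild type, 25.1. In the outer flank of Pdgfra the leading region was Kit-431.8kb (chr5:75142861-75143549), inside the span of the long noncoding RNA Gm19583. Its −log10 p was 25.7, 33.1, 37.7 and 26.9 in Flt3-ITD/Runx1-het, Flt3-ITD, Runx1-het and wild type of set 1. It was 18.7 in NUP98-HOXD13/Flt3-ITD and 25.05 in wild type of set 2, and the region was absent from NUP98-HOXD13 and Flt3-ITD of that set.

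Kit (chr5:75574987-75656722, plus strand) had a region over its start in all 8 lists. This region, Kit+0.3kb (chr5:75574542-75576084), had a −log10 p of 231.9, 217.2, 237.6 and 219.6 in Flt3-ITD/Runx1-het, Flt3-ITD, Runx1-het and wild type of set 1. In set 2 it had 244.1, 216.7, 47.5 and 360.4 in NUP98-HOXD13/Flt3-ITD, NUP98-HOXD13, Flt3-ITD and wild type. Its percentile was 88.8 to 92.2 in 7 lists and 79.2 in set-2 Flt3-ITD, and the 8 summits lay within 29 bp. It is the region over the promoter printed above with the ETS match.

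The rest of the Kit span differed by list. NUP98-HOXD13/Flt3-ITD held 3 regions in the span, NUP98-HOXD13 held 1 and set-2 Flt3-ITD held 1, against 7 in set-2 wild type. These lists held 61.7%, 63.9%, 46.9% and 72.4% of all union regions in the same order. In set 1 the numbers in the span were 3 in Flt3-ITD/Runx1-het, 3 in Flt3-ITD, 4 in Runx1-het and 2 in wild type. Their shares of all union regions were 66.7%, 65.4%, 67.8% and 59.1%. Of the set-2 regions beyond the start, Kit+17.5kb (chr5:75592000-75592940) ranked highest, at percentile 3.77 in NUP98-HOXD13/Flt3-ITD and 42.8 in wild type. It was also present in Flt3-ITD/Runx1-het, set-1 Flt3-ITD and Runx1-het at percentiles 26.2, 27.5 and 13.8. Kit+7.2kb, Kit+14.7kb and Kit+49.2kb were present in set-2 wild type alone, with −log10 p of 36.1, 23.2 and 13.0. With equal numbers of peaks, each set-2 mutant list held 1 region in the Kit span and set-2 wild type held 3, so the number in set-2 wild type depended on the length of its list.

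Kdr (chr5:75932827-75979072, minus strand) had a region at its start in 7 lists. Kit+403.3kb (chr5:75977580-75978958) had a −log10 p of 33.0, 43.0, 39.5 and 46.5 in Flt3-ITD/Runx1-het, Flt3-ITD, Runx1-het and wild type of set 1. It had 48.1, 19.8 and 44.6 in NUP98-HOXD13/Flt3-ITD, NUP98-HOXD13 and wild type of set 2, and was absent from set-2 Flt3-ITD. Its percentile was 26.8 to 54.6 where present, so the Kdr start stood below the Kit start in each of these lists. The region also overlaps the span of the noncoding gene Gm32727, so it is not assigned to 1 of these genes.

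A region at each end of the Kdr gene ranked higher than the one at its start. Kit+358.7kb (chr5:75933227-75934202) lay inside the gene span near its far end, 44.7 kb downstream of the Kdr start, at percentile 68.4 to 87.3 in the 8 lists. Kit+406.1kb (chr5:75980830-75981383) lay 2.7 kb upstream of the Kdr start, inside the Gm32727 span, at percentile 45.0 to 73.4. Its −log10 p was 92.5, 90.3, 94.0 and 86.9 in Flt3-ITD/Runx1-het, Flt3-ITD, Runx1-het and wild type of set 1. In set 2 it was 80.8, 43.4, 19.2 and 139.6 in NUP98-HOXD13/Flt3-ITD, NUP98-HOXD13, Flt3-ITD and wild type. Within the lists, its percentile was 45.0 in set-2 Flt3-ITD and 54.0 in NUP98-HOXD13, and 67.8 to 73.4 in the other 6.

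The study combined Flt3-ITD with a second mutation, and each mutant list was set against the wild-type list of its set. The 3 comparisons of a set share that wild-type list. Flt3-ITD/Runx1-het had 15 domain regions absent from set-1 wild type (20%, against 15.6% of all union regions) and lacked 6 regions of wild type (8%, against 7.94%). Set-1 Flt3-ITD had 11 (14.7%, against 13.6%) and lacked 6 (8%, against 7.35%). Runx1-het had 19 (25.3%, against 15%) and lacked 0 (0%, against 6.31%), so it held every domain region of set-1 wild type. Of its 19 added regions, 6 lay between Pdgfra and Kit, 6 between Kit and Kdr and 2 in the Kit span, and their median percentile in the list was 14.9. These stretches held 20, 28 and 8 of the 75 domain regions, so no preferred place is read from the counts. The shares of both set-1 lists with Flt3-ITD lay nearer to the background than those of Runx1-het.

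In the set-2 lists as deposited, each mutant lacked more regions of wild type than it added, both in the domain and over all union regions. NUP98-HOXD13/Flt3-ITD had 10 domain regions absent from set-2 wild type (13.3%, against 8.09%) and lacked 13 (17.3%, against 18.8%). NUP98-HOXD13 had 5 (6.67%, against 8.85%) and lacked 16 (21.3%, against 17.3%). Set-2 Flt3-ITD had 0 (0%, against 3.29%) and lacked 26 (34.7%, against 28.7%). In the Kit span NUP98-HOXD13/Flt3-ITD lacked 4 of the regions of wild type, and NUP98-HOXD13 and set-2 Flt3-ITD lacked 6 each and held the Kit start region alone. Between Kit and Kdr, NUP98-HOXD13/Flt3-ITD lacked 3 and NUP98-HOXD13 1, and set-2 Flt3-ITD lacked 5. Set-2 wild type held 7 regions in the Kit span and 16 between Kit and Kdr. With equal numbers of peaks it held 3 in the Kit span, and each set-2 mutant list 1. Over the whole series, the mutant lists lacked 22940, 21101 and 35073 of the 88301 regions of set-2 wild type, in the same order. These were 18.8%, 17.3% and 28.7% of all union regions, a different base, and the stretches were not compared with them.

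**Figure D4:**
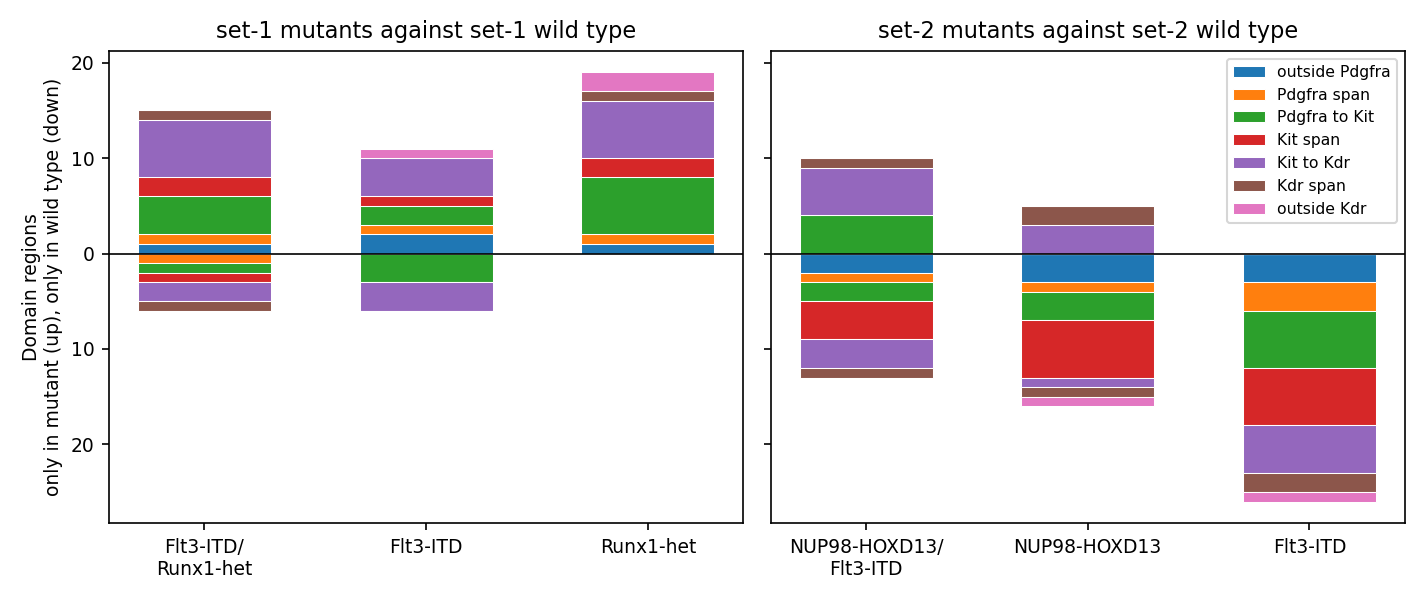
Number of domain regions present in a mutant list and absent from the wild type of its set (bars up) and the reverse (bars down), coloured by place along the domain, for set 1 (left) and set 2 (right). Runx1-het has 19 up and 0 down, and set-2 Flt3-ITD 0 up and 26 down.

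The net differences, mutant minus wild type, were 9, 5 and 19 regions in Flt3-ITD/Runx1-het, Flt3-ITD and Runx1-het of set 1. They were -3, -11 and -26 in NUP98-HOXD13/Flt3-ITD, NUP98-HOXD13 and Flt3-ITD of set 2. With equal numbers of peaks they became 4, -2 and 9 in set 1 and 5, 0 and -8 in set 2. Set against the wild type of the other set they were -1, -5, 9, 7, -1 and -16 in the same order. The sign held under both alternatives for Runx1-het, which held more domain regions than wild type, and for set-2 Flt3-ITD, which held fewer. Over all union regions as deposited, Runx1-het likewise added more (18308) than it lacked (7698), and set-2 Flt3-ITD fewer (4017 against 35073). With equal numbers of peaks, the share of all regions was 70.4% in Runx1-het against 68.3% in set-1 wild type. It was 59.7% in set-2 Flt3-ITD against 71% in set-2 wild type. These directions are thus not read as particular to the domain. The sign in the domain turned under both for set-1 Flt3-ITD and for NUP98-HOXD13/Flt3-ITD, and no direction is given for these. For Flt3-ITD/Runx1-het it turned against the other wild type, and for NUP98-HOXD13 the difference was 0 with equal numbers of peaks.

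Lists of equal genotype from the 2 sets also differed. Set-2 wild type had 16 domain regions absent from set-1 wild type (21.3%, against 18.9%) and lacked 6 (8%, against 5.63%). Set-2 Flt3-ITD had 1 absent from set-1 Flt3-ITD (1.33%, against 4.4%) and lacked 22 (29.3%, against 22.9%). The 16 regions between wild-type lists were more than the 15, 11, 10, 5 and 0 regions gained in 5 of the 6 mutant lists, and fewer than the 19 of Runx1-het. This order changed with equal numbers of peaks, where set-2 wild type had 5 regions absent from set-1 wild type. The mutant lists then gained 9, 5 and 10 in set 1 and 9, 4 and 1 in set 2. In the other direction, set-2 wild type lacked 10 regions of set-1 wild type. The mutant lists lacked 5, 7 and 1 in set 1 and 4, 4 and 9 in set 2. The shares of all union regions were not computed for these counts, so nothing is read from their order. Pairs of equal genotype hold any difference between the sets as well as the spread between lists, and these cannot be told apart.

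The Flt3-ITD comparison was made once in each set, against different wild-type lists. No domain region (0%, against 0.756% of all union regions) was present in both Flt3-ITD lists and absent from both wild types, and 1 (1.33%, against 3.24%) was absent from both Flt3-ITD lists and present in both wild types. Of the 11 regions gained by Flt3-ITD in set 1, 5 were lost by Flt3-ITD in set 2 (45.5%, against 38.1% over all regions gained in set 1). These shares lay near the background.

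Each double mutant was also set against its single mutants. Flt3-ITD/Runx1-het had 11 domain regions absent from set-1 Flt3-ITD (14.7%, against 11.4%) and lacked 7 (9.33%, against 10%). It had 7 absent from Runx1-het (9.33%, against 11.4%) and lacked 17 (22.7%, against 12.4%), of which 6 lay between Pdgfra and Kit and 4 between Kit and Kdr. NUP98-HOXD13/Flt3-ITD had 13 absent from NUP98-HOXD13 (17.3%, against 9.89%) and lacked 5 (6.67%, against 12.2%). Of these 13, 6 lay between Pdgfra and Kit. The stretches between Pdgfra and Kit and between Kit and Kdr held 20 and 28 of the 75 domain regions. NUP98-HOXD13/Flt3-ITD had 23 absent from set-2 Flt3-ITD (30.7%, against 21.3%) and lacked 0 (0%, against 6.52%). Adding Flt3-ITD thus went with 10 fewer domain regions on the Runx1-het background, 42 against 52, and with 8 more on the NUP98-HOXD13 background, 40 against 32. Over all union regions these differences were -1289 and -2765. With equal numbers of peaks they were -5 and 5 in the domain.

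Few regions followed a mutation across both of its lists in a set. In set 1, 2 regions were present in both lists with Flt3-ITD and neither without (2.67%, against 2.79% of all regions), and 3 showed the reverse (4%, against 1.78%). The first were Kit-109.0kb and Kit+98.4kb, and the others Kit-196.2kb, Kit+181.5kb and Kit+278.4kb. Kit-109.0kb (chr5:75465638-75466396) had a −log10 p of 50.9 in Flt3-ITD/Runx1-het and 32.5 in Flt3-ITD, at percentiles 50.4 and 31.4, and it kept its pattern with equal numbers of peaks. Beside it, Kit-108.0kb (chr5:75466541-75467440) was present in the 4 set-1 lists and in NUP98-HOXD13/Flt3-ITD. Of the reverse regions, Kit+181.5kb (chr5:75756345-75756616), with 22.6 in Runx1-het and 17.8 in wild type, kept its pattern with equal numbers of peaks and the other 2 did not. In set 2, 0 regions were present with Flt3-ITD alone (0%, against 0.452%) and 4 were absent with it alone (5.33%, against 4.5%). These 4 were Kit-419.1kb, Kit-317.6kb, Kit+265.8kb and Kit+296.3kb. Kit+265.8kb (chr5:75840423-75841067) kept its pattern with equal numbers, with a −log10 p of 24.4 in NUP98-HOXD13 and 56.8 in wild type, and it was present in all 4 set-1 lists.

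Runx1-het in set 1 had 3 regions of its own in both of its lists (4%, against 2.38%), Kit+65.8kb, Kit+105.2kb and Kit+242.0kb, and 0 absent with it alone (0%, against 1.15%). NUP98-HOXD13 in set 2 had 4 (5.33%, against 2.8%), Kit+105.2kb, Kit+251.6kb, Kit+278.4kb and Kit+364.6kb, and 0 absent with it alone (0%, against 2.07%). Kit+105.2kb (chr5:75679909-75680460), inside the span of the noncoding gene Gm32558, was common to both groups. Its −log10 p was 31.1 in Flt3-ITD/Runx1-het, 19.8 in Runx1-het, 18.7 in NUP98-HOXD13/Flt3-ITD and 13.5 in NUP98-HOXD13, at percentiles between 15.6 and 32.7. It was absent from both Flt3-ITD lists and both wild-type lists, so it was present in the 4 lists with Runx1-het or NUP98-HOXD13 and in no other. The rule for following a mutation covered each set alone. The share of all union regions with this pattern across sets was not computed, so nothing is read from it. With equal numbers of peaks Kit+105.2kb kept its pattern in set 1, and in set 2 it was left in 1 of the 2 lists with NUP98-HOXD13. Kit+251.6kb (chr5:75826294-75826866), the neighbour of Kit+255.4kb, kept its pattern in set 2 with a −log10 p of 22.6 in NUP98-HOXD13/Flt3-ITD and 18.5 in NUP98-HOXD13, but it was also present in 3 set-1 lists, wild type among them. Of the 16 regions that followed a mutation, counting 1 in each set where it did, 5 kept their pattern with equal numbers of peaks. The share that kept a pattern over all union regions was not computed, so nothing is read from this count or from the single regions that kept theirs.

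The regions of a single list were weak. Runx1-het had 7 (9.33% of the domain regions, against 2.51% of all union regions), Flt3-ITD/Runx1-het 5 (6.67%, against 3.42%), set-1 Flt3-ITD 2 (2.67%, against 1.79%) and set-1 wild type 0 (0%, against 0.942%). NUP98-HOXD13/Flt3-ITD had 4 (5.33%, against 2.1%), NUP98-HOXD13 1 (1.33%, against 2.99%), set-2 Flt3-ITD 0 (0%, against 0.892%) and set-2 wild type 6 (8%, against 4.3%). The highest −log10 p of these single-list regions was 36.1, at Kit+7.2kb in set-2 wild type. Of all union regions strong in at least 1 list, 95.2% were present in all 8 lists, so this weakness is not read as particular to the domain. In Runx1-het, 4 of the 7 lay between Pdgfra and Kit, a stretch that held 9 of the 25 single-list regions. Among these 4 were Kit-114.3kb (chr5:75460386-75460898) with 17.9 and Kit-38.9kb (chr5:75535868-75536332) with 30.6. Kit-38.9kb was the region nearest to the Kit start on its upstream side. Conversely, 4 domain regions were missing from set-2 Flt3-ITD alone (5.33%, against 5.6%) and 1 from set-1 wild type alone (1.33%, against 0.985%), both near the background.

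At the edges of the domain, the outermost region inside it on the Kdr side, Kit+451.5kb, was present in Runx1-het alone with a −log10 p of 14.5. The nearest region beyond that edge, 473.6 kb from the Kit start, was present in all 8 lists with 15.5 to 119.0. On the Pdgfra side the outermost region inside was Kit-431.8kb, and the nearest beyond, at -495.2 kb, was present in 7 lists with 18.8 to 46.9.

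Genes of the same receptor families and their signalling partners were read at their starts, within 1 kb, as presence and percentile in each list. Of the 90 genes listed here and below as markers, 19 had no annotated start in the table used, and for these a region within 1 kb of either end of the gene counted. Among these were Csf1r, Pdgfrb, Il34, Pdgfb, Gab2, Lyn, Spi1, Cdh5, Pecam1, Sox17, Sox18, Col1a1, Dcn, Lum, Tpsb2, Cd79b and Cd4. Of 21887 protein-coding genes read in the same way, 59.3% had a region in all 8 lists and 30.3% in none, and of the 17492 with a known start 59.7% and 30.7%. The class III receptors outside the domain, Flt3, Csf1r and Pdgfrb, had a region in 8 of 8 lists. Flt3, the receptor altered in the Flt3-ITD lists, stood at percentile 99.5, 99.3, 99.3 and 99.4 in Flt3-ITD/Runx1-het, Flt3-ITD, Runx1-het and wild type of set 1. It stood at 98.9, 97.8, 98.1 and 99.3 in NUP98-HOXD13/Flt3-ITD, NUP98-HOXD13, Flt3-ITD and wild type of set 2. The start of Flt3 thus ranked above that of Kit, at 79.2 to 92.2, in every list. Csf1r, the receptor of macrophage growth factor, was at 11.8 to 34.6, and Pdgfrb at 33.1 to 82.9. Of the VEGF receptors, Flt4 had a region in 8 lists and Flt1 in 5, at up to 25.4.

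Of 13 ligand genes, 10 had a region at the start in all 8 lists, among them Kitl, which encodes stem cell factor, at 65.9 to 79.6, Flt3l, the Flt3 ligand, at 44.5 to 81.9, and Vegfa at 40.5 to 78.3. Il34 and Vegfd had 0, and Pdgfb was present in 3 lists. Of 14 adaptors and regulators of receptor signalling, 13 had a start region in all 8 lists, such as Grb2, Cbl and Stat5a. Among those with a known start the counts were 10 of 11 ligands and 11 of 12 adaptors and regulators. A start region in all 8 lists was common among genes, and nothing particular to these lists is read from the counts. Ptpn6, a phosphatase that restrains Kit signalling, had one in 7 and none in set-2 wild type.

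The labelled cell type was checked against marker genes in the same way. All 10 progenitor markers, Cd34, Meis1, Spi1, Runx1, Myb and Kit among them, had a start region in 8 of 8 lists, against 59.3% of all protein-coding genes, so a start region alone is a weak check of a cell type. Of 12 endothelial markers, a list that includes Kdr, 7 had one in all 8 lists, near that background, and among the 8 with a known start it was 4. The number with one was 9, 11, 12 and 11 in Flt3-ITD/Runx1-het, Flt3-ITD, Runx1-het and wild type of set 1, and 11, 10, 7 and 12 in NUP98-HOXD13/Flt3-ITD, NUP98-HOXD13, Flt3-ITD and wild type of set 2. Of all protein-coding genes, 65.9%, 66.2%, 66.5% and 65.1% had one in the set-1 lists and 65.8%, 65.7%, 61.8% and 67.5% in the set-2 lists, in the same orders. The endothelial genes ranged widely. Sox17 stood at percentile 89.0 to 97.7 and Robo4 at 75.2 to 97.2 in the 8 lists, Pecam1 at 12.4 to 65.4 and Egfl7 at 31.9 to 64.8. For Cdh5 the region was present in 4 lists at up to 13.9, and for Tie1 in 4 lists at up to 28.4. Sox17, Pecam1 and Cdh5 are among those read at either end of the gene. Of 12 stromal markers, a list that includes Pdgfra, 4 had one in all 8 lists, below that background, with 8, 9, 10 and 9 in the set-1 lists and 8, 9, 5 and 9 in the set-2 lists in the same orders. Col3a1 had 0. Runx1-het had the highest number of stromal markers, 10, as well as of domain regions, and set-2 Flt3-ITD the lowest of both. The other lists had 8 or 9 stromal markers, and Dcn, present in Runx1-het alone, stood at percentile 7.85. For endothelial markers, set-2 wild type equalled Runx1-het at 12. The part of other cells in the domain's values was not tested. Of 7 mast cell markers, Ms4a2, Fcer1a, Tpsb2 and Cma1 had 0, Cpa3, a mast cell protease, had a region in 7 lists at percentile 33.2 to 59.3 and none in set-2 Flt3-ITD, and Mitf and Hdc, which other blood cells also use, had a region in all 8 lists. Of 5 T cell markers, Cd3e, Cd3d and Cd8a had 0, and Cd4 and Bcl11b had one in 8 lists. Among B cell markers Pax5 had 0, Ebf1 had one in 8 lists, Cd79a in 5 and Cd79b in 7. Of 6 neutrophil markers, Ly6g, Camp and Elane had 0, S100a8 had one in 5 lists, and Ltf and Mpo in 8. Among erythroid markers Klf1 and Epor had one in all 8 lists, and Gata1 and Hbb-bt had 0.

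The likeness of other genes to the domain was described by the share of a gene's regions present in each list, less the share of all regions, over the 8 lists. Among 11838 protein-coding genes with at least 10 regions within 50 kb, the 3 most like the domain were Rhbdd2 on chromosome 5 and Zfp318 and Crip3 on chromosome 17, with r of 0.966, 0.952 and 0.952. The values of Rhbdd2, with 14 regions, were -2.5, -8.2, 17.9 and -9.1 points in the set-1 lists and -4.5, -13.9, -18.3 and -8.1 in the set-2 lists, in the orders above. Those of the domain were -10.7, -14.7, 1.5 and -15.1 in set 1 and -8.3, -21.3, -24.2 and -15.0 in set 2. For Kit alone, with 14 regions within 50 kb, the most alike were Imp3, Galk2 and Sstr3 at 0.966, 0.957 and 0.955, and for Pdgfra, with 13, they were Cfap99, Wnt1 and Ddn at 0.967, 0.965 and 0.965. Wnt1 and Ddn, both on chromosome 15, had the same values over 18 regions each. Kdr had fewer than 10 regions and was not compared. The 8 points share the lists and their depths, and the highest of many genes are given, so these values are a description.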

How the data were processed

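ATAC-seq was made from 16 samples in 8 groups of 2, and the sample titles separate the sets. Alignment and peak calling used Bowtie2 and MACS2 on mm10 (GRCm38), per the submitters' processing notes, with no versions. The 2 samples of each group point to the same peak list, per the labels. Not given in the sources used here are pooling, read shifting, filters and thresholds, and depth is unknown. The deposited values of a peak are its fold enrichment over local background (a ratio), a −log10 p-value and a summit position. They served to describe and rank the peaks of a list.

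Overlapping peaks of the 8 lists (1 bp or more, autosomes and sex chromosomes) were merged. A region was present in a list with a peak in it, and took that list's best values. No test between genotypes was possible. Gene spans and starts came from the RefSeq tables of GRCm38.p6 (either end of the gene where no start was listed), and exons and introns were not known, so regions are placed by gene span. Distances were computed with Python 3.11.15 and numpy 2.4.6, and the merging and ranking steps were tested on simulated data.

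The regions named are those at the 3 gene starts, the leading region of each stretch, the 8 highest by median percentile, those that follow a mutation in a set, and strong regions absent from the compared list. Kit+96.5kb, Kit+17.5kb, Kit-108.0kb and the single-list regions beyond this rule were chosen after their values were seen. Some marker genes are not reported here. The members and gene lists were chosen with earlier results of these data known. Alternatives were a −log10 p of at least 10, equal numbers of peaks, 50% cover, margins of 100 and 0 kb, and the wild type of the other set.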

Additional observations from a re-analysis of the deposited data

Results flagged for a closer look

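The number of domain regions with Flt3-ITD, minus the number without it, differed in sign between the backgrounds. It was -10 on the Runx1-het background (42 against 52) and 5 on the set-1 wild-type background (38 against 33). It was 8 on the NUP98-HOXD13 background (40 against 32) and -26 on the set-2 wild-type background (17 against 43). Over all union regions the differences were -1289, 7655, -2765 and -31056 in the same order, which also differ in sign and have the sign of the domain except on the NUP98-HOXD13 background. With equal numbers of peaks the domain differences were -5, -2, 5 and -8, so that the NUP98-HOXD13 background was then the one with more domain regions under Flt3-ITD. Each group has 1 list, so the difference between backgrounds was not tested.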

How the results depend on the processing

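No paired analysis was possible because each group has 1 list and no value per sample, and for the same reason no sample could be left out. Of the recomputed values, 278 stayed within 1.5 times the value given and 65 moved further or turned, 35 of them with equal numbers of peaks and 14 with the wild type of the other set. Every setting changes the counts by construction, since it drops peaks, asks for more cover, moves the margins or exchanges a list. Depth is unknown and limits every absence from a list.

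With equal numbers of peaks there were 49 domain regions, 11 of them in 1 list, and set-2 wild type held 25. The Kit span then held 1 region in NUP98-HOXD13/Flt3-ITD, 2 in Runx1-het and 3 in set-2 wild type, and 0 lists had a region at the Pdgfra start. The regions present in both Runx1-het lists alone were 1, those absent with set-2 Flt3-ITD alone 1, and those present with NUP98-HOXD13 alone 2. Against wild type, the regions gained were 9 in Flt3-ITD/Runx1-het, 5 in set-1 Flt3-ITD, 10 in Runx1-het and 1 in set-2 Flt3-ITD. The regions lost were 1 in Runx1-het, 4 in NUP98-HOXD13/Flt3-ITD, 9 in set-2 Flt3-ITD and 4 in NUP98-HOXD13. The net differences were 4 in Flt3-ITD/Runx1-het, -2 in set-1 Flt3-ITD, 9 in Runx1-het, 5 in NUP98-HOXD13/Flt3-ITD, 0 in NUP98-HOXD13 and -8 in set-2 Flt3-ITD. Flt3-ITD/Runx1-het lacked 3 regions of set-1 Flt3-ITD and 11 of Runx1-het, for a net -5 against Runx1-het. NUP98-HOXD13/Flt3-ITD had 8 regions absent from NUP98-HOXD13 and lacked 3, for a net 5, and had 14 absent from set-2 Flt3-ITD and lacked 1. Set-2 wild type had 5 regions absent from set-1 wild type and lacked 10, and set-2 Flt3-ITD lacked 12 of set-1 Flt3-ITD.

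Against the wild type of the other set, the regions gained were 6 in set-1 Flt3-ITD, 8 in NUP98-HOXD13 and 2 in set-2 Flt3-ITD. The regions lost were 15 in Flt3-ITD/Runx1-het, 11 in set-1 Flt3-ITD, 9 in Runx1-het, 7 in NUP98-HOXD13/Flt3-ITD and 9 in NUP98-HOXD13. The net differences were -1 in Flt3-ITD/Runx1-het, -5 in set-1 Flt3-ITD, 9 in Runx1-het, 7 in NUP98-HOXD13/Flt3-ITD, -1 in NUP98-HOXD13 and -16 in set-2 Flt3-ITD.

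With a −log10 p of at least 10, Flt3-ITD/Runx1-het lost 3 regions of wild type, NUP98-HOXD13/Flt3-ITD lacked 3 of NUP98-HOXD13 and held 1 in the Kit span, and 1 region was absent with set-1 Flt3-ITD alone. With 50% cover, the net difference of NUP98-HOXD13/Flt3-ITD was -1, set-2 Flt3-ITD had 0 regions absent from set-1 Flt3-ITD, and 1 strong region was absent from a compared list. With a margin of 100 kb, Runx1-het lost 1 region, set-2 Flt3-ITD gained 1, NUP98-HOXD13 gained 8, and NUP98-HOXD13/Flt3-ITD lacked 8 of NUP98-HOXD13 and 1 of set-2 Flt3-ITD. With a margin of 0 kb, the net differences were 2 in set-1 Flt3-ITD, -1 in NUP98-HOXD13/Flt3-ITD and -7 in NUP98-HOXD13, and Flt3-ITD/Runx1-het lacked 4 regions of set-1 Flt3-ITD.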
